A study of Mus musculus with 10 samples.

Results

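The glutathione, peroxiredoxin and other antioxidant enzyme genes were defined by gene symbol: the glutathione S-transferases (Gst and Mgst), glutathione peroxidases (Gpx), peroxiredoxins (Prdx), superoxide dismutases (Sod), thioredoxins and their reductases (Txn, Txnrd), catalase (Cat), the enzymes that make and recycle glutathione (Gclc, Gclm, Gsr), heme oxygenase 1 (Hmox1) and the quinone reductase Nqo1. Symbols of this kind numbered 52 among the 22835 gene symbols of the tables. The values were mRNA levels by RNA-seq in brown fat cell cultures that were mock-treated or given 4-hydroxytamoxifen (4OHT), and 1 library was sequenced for each line and treatment, 4 in all.

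The cells were preadipocytes from the interscapular brown fat of newborn mice, and all of them carried SV40 large T antigen from a retrovirus and the 4OHT-activated recombinase CreER. In the LSL-K4M line (LSL-K4M;CreER), 4OHT removes a stop cassette and switches on histone H3.3 with methionine in place of lysine at position 4, as the line is named. In the Mll3/4SET line (Mll3f/f;Mll4SETf/f;CreER), 4OHT deletes floxed parts of the H3K4 methyltransferase genes Mll3 and Mll4, including the SET domain of the latter. By its title the study set the mutant histone beside loss of MLL3 and MLL4 in adipogenesis, and neither title nor design names the antioxidant enzymes. All cultures were induced to become fat cells with dexamethasone, IBMX, indomethacin, insulin and T3, and later medium kept insulin and T3. The RNA libraries were labelled as mature adipocytes of day 7, and the file headers also give day 7 for both mock and 4OHT. Each 4OHT library nevertheless carries day 0 in its title. Day 7 was used here, some doubt about the date of the 4OHT libraries remains, and no analysis without them is possible. The labels do not say when 4OHT was given, from how many animals each line came or whether a line is a clone.

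Reactive oxygen species are handled by a chain of enzymes. Superoxide dismutases turn superoxide into hydrogen peroxide, which catalase, glutathione peroxidases and peroxiredoxins reduce to water. Glutathione peroxidases draw on glutathione, peroxiredoxins mostly on thioredoxin, and both of these are kept reduced with NADPH. Glutathione S-transferases couple glutathione to reactive lipids and foreign compounds. Several of these genes are known targets of the transcription factor NRF2, which binds antioxidant response elements. Brown fat cells are rich in mitochondria and peroxisomes, where much of the peroxide of a fat cell is made.

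The libraries held about 15209600 to 16719700 reads on 1 transcript per symbol. Levels are given as RPKM, which divides reads by transcript length and by library size. A gene was called lower or higher with 4OHT when its log2(RPKM + 1) value differed by at least 2-fold, a scale that understates differences of weakly expressed genes, and only where the higher library of a line reached 1 RPKM. A fold given for a gene that was not called describes its libraries only. There were no replicates, so the spread between cultures is unknown and no p-value is given. The 95% intervals beside ratios are exact binomial intervals of the reads and cover counting error only. All 12 adipocyte markers were called lower in both lines, with summed RPKM of 7419.5 (LSL-K4M mock), 1968 (LSL-K4M 4OHT), 7889 (Mll3/4SET mock) and 86.9 (Mll3/4SET 4OHT), and with median log2 differences of -1.97 and -5.65. Among them Pparg, the master regulator of fat cells, was at 134 (mock) and 22.9 RPKM (4OHT) for LSL-K4M, then 100.3 and 3.23 for Mll3/4SET. The lipid carrier Fabp4 was at 4099 (mock) and 1066 RPKM (4OHT) for LSL-K4M, then 5119 and 24.3 for Mll3/4SET, and the hormone Adipoq at 483 (mock) and 119 RPKM (4OHT) for LSL-K4M, then 167 and 3.22 for Mll3/4SET. The part of these markers in the results below was not tested, and fewer fat cells and less RNA per cell cannot be told apart in bulk RNA. Of the brown adipocyte markers, 6 of 7 measured in LSL-K4M and 4 of 6 in the other line were called lower, and the list of 8 summed to 86.5 (mock) and 13.4 RPKM (4OHT) for LSL-K4M, then 89.9 and 4.77 for Mll3/4SET. In the mock libraries Cox7a1 was at 50.9 and 68.0 RPKM and Cox8b at 15.3 and 10.8, while the defining marker Ucp1 was at 3.58 and 1.45 and Dio2 under 1. Among markers of other cells, the 10 macrophage and leukocyte markers summed to 11.6 RPKM (LSL-K4M mock), 7.63 (LSL-K4M 4OHT), 13.01 (Mll3/4SET mock) and 4.30 (Mll3/4SET 4OHT), with Tyrobp at 0 reads in all 4 libraries and Ptprc at 0 in all but LSL-K4M 4OHT. The 9 preadipocyte and fibroblast markers summed to 1970.0 (mock) and 2315 RPKM (4OHT) for LSL-K4M, then 3346 and 3411 for Mll3/4SET, mostly from the collagens Col1a1 and Col3a1. Their median log2 difference was 0.27 in LSL-K4M, with Dlk1 called higher at 1.26, and -0.43 in Mll3/4SET, with Ly6a at -1.67 and Pdgfra at -1.26 called lower. Acta1, of muscle, was called higher in both lines, and its list of 6 summed to at most 11.4 RPKM. The 4 endothelium markers summed to 1.71 (mock) and 2.12 RPKM (4OHT) for LSL-K4M, then 3.15 and 5.49 for Mll3/4SET. Of them only Tek was measured, and it was not called in either line. The 6 erythroid and 5 hepatocyte markers summed to less than 1 RPKM in every library.

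Antioxidant enzyme genes were mostly lower where they passed 2-fold, and most of them stayed under it. In LSL-K4M, 7 of 44 measured members (15.9%) were lower with 4OHT, against 6.19% of all measured genes, and 1 (2.27%) was higher, against 5.26%. In Mll3/4SET, 10 of 42 (23.8%) were lower, against 7.41% of all measured genes, and 1 (2.38%) was higher, against 5.18%. The median log2 difference of the measured members was -0.33 in LSL-K4M and -0.37 in Mll3/4SET, beside 0.10 and 0.12 over all measured genes. Median-ratio and TMM scaling moved the medians of all genes by -0.09 to -0.13. With these scalings 9 and 10 members were lower and 0 higher in LSL-K4M, and 12 and 12 lower and 0 higher in Mll3/4SET. The shares of all genes moved too, to 7.30% and 7.57% lower and 4.14% and 3.91% higher in LSL-K4M, and to 8.37% and 8.53% lower and 3.83% and 3.62% higher in Mll3/4SET.

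In both lines Mgst1, Mgst2, Mgst3, Cat, Prdx3, Gstm1 and Gstz1 were called lower. Those 7 made 16.7% of the 42 members measured in both lines, where 4.76% of all genes measured in both were lower in both. Gpx8 alone was called higher in both lines, 2.38% of the members beside 3.14% of all genes, and it dropped under the limit in both lines with median-ratio and with TMM scaling. Gpx3, Gsta3 and Sod3 were called lower in Mll3/4SET and stayed under the limit in LSL-K4M, where Gsta3 was called with smaller pseudocounts and with TMM scaling. No member was called in opposite directions. Nearest to the limit were Gpx8 at 1.03 and Sod3 at -1.04 just inside it, and Gclm at -0.99 and Gpx7 at 0.97 just outside it, all in Mll3/4SET. The 2 comparisons share no library, but both set 4OHT against mock in cells with CreER. No library came from CreER cells without the stop cassette or the floxed genes. A response to 4OHT or active CreER itself therefore cannot be told apart from that to the genetic changes. Over the 42 members, which are not independent replicates, the log2 differences of the lines had Pearson's r = 0.87, and over all 11830 genes measured in both r was 0.82.

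**Figure D1:**
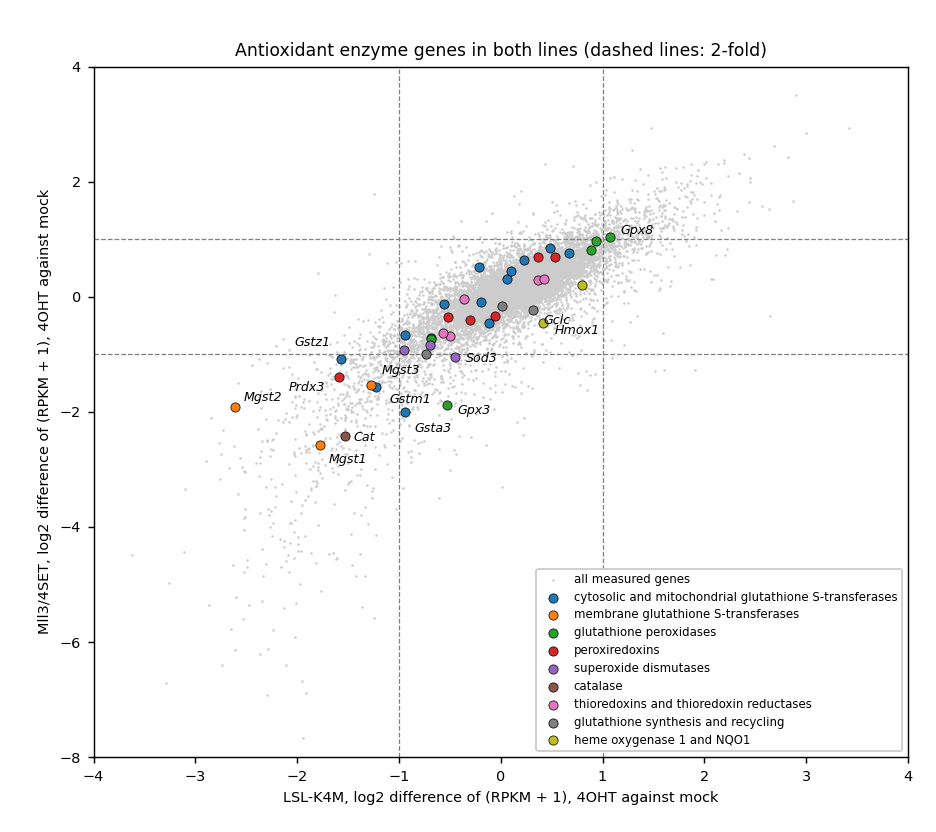
Log2 difference of (RPKM + 1), 4OHT against mock, in LSL-K4M (x axis) and Mll3/4SET (y axis), with all genes measured in both lines in grey and the 42 antioxidant enzyme genes as coloured points by enzyme group; dashed lines mark 2-fold. The 7 members lower in both lines lie in the lower left, and Gpx8 at 1.07 and 1.03 is the highest member.

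The promoters of 3 abundant members lower in both lines and of the member higher in both are shown as examples. Those of Mgst2, Mgst3, Gstm1 and Gstz1, also lower in both lines, are not shown. Windows from RefSeq (build GRCm38.p6, 250 bases before to 50 after the gene start) were on hand for 45 of the 52 members, and not for Gclc, Gsr, Gsta4, Gstt2, Hmox1, Prdx6 and Sod3. Capitals mark exact matches on either strand to TGACNNNGC (the core of an antioxidant response element), AGGTCA (a nuclear receptor half-site), TTGCNNAA (a C/EBP-type motif) or GGGCGG (a GC box). None of the marked matches overlaps another in these 4 windows.
Mgst1 (the upstream of its 2 starts, chr6:138140277-138140576, plus strand): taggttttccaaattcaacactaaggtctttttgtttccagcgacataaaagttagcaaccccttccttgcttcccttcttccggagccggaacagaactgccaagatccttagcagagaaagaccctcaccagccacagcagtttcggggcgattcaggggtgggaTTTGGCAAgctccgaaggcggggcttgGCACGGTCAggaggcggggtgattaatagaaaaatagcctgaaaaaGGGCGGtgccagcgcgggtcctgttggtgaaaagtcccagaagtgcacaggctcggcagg
Cat (chr2:103485104-103485403, minus strand): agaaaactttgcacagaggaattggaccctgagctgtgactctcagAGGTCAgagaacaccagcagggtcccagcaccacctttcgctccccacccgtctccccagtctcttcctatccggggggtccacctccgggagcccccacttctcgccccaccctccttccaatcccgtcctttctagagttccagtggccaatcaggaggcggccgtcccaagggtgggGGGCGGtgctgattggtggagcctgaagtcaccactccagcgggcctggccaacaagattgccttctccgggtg
Prdx3 (chr19:60874489-60874788, minus strand): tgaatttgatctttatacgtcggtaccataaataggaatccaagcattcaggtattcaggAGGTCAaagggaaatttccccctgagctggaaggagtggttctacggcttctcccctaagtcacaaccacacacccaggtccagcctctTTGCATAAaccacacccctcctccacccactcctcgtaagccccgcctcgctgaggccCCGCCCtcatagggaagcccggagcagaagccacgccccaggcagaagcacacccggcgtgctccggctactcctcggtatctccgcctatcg
Gpx8 (chr13:113046339-113046638, minus strand): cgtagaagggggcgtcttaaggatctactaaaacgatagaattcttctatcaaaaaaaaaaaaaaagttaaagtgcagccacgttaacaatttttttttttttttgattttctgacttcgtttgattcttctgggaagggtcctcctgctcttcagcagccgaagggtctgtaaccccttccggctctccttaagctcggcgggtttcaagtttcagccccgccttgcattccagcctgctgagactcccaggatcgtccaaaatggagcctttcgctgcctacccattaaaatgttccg
The Mgst1 window held the element core 56 bases before the start, a C/EBP-type motif 83 bases before it and a GC box. Cat and Prdx3 held a half-site, 204 and 190 bases before the start, and a GC box each, and Prdx3 also held a C/EBP-type motif. The Gpx8 window held none of these letters, which says nothing of the factors. Of all 32851 windows, 12.4% held the element core, 16.3% the half-site, 10.8% the C/EBP-type motif and 35.7% the GC box. Of the 59 windows of the members, 8 held the core (those of Gclm, Gsta3, Gstm5, Gstm7, Prdx1, Sod1, Txnrd1 and Mgst1), 7 the half-site, 5 the C/EBP-type motif and 35 the GC box. Of the 10 windows of members lower in both lines, 1 held the core, 3 the half-site, 2 the C/EBP-type motif and 6 the GC box. Of the 37 windows of measured members called in neither line, these numbers were 6, 3, 2 and 26. The window of Mgst2 held none of the motifs, and those of Gstz1 and Mgst3 held GC boxes only.

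The membrane glutathione S-transferases had lower levels with 4OHT in both lines for all 3 genes. Mgst1, which detoxifies lipid peroxides in the endoplasmic reticulum and outer mitochondrial membrane, was the most abundant member in both mock libraries. Its level was 367 RPKM (LSL-K4M mock), 107 (LSL-K4M 4OHT), 322 (Mll3/4SET mock) and 53.2 (Mll3/4SET 4OHT). Both mock values lay well above both 4OHT values, and the ratio of mock to 4OHT was 3.45 (3.29 to 3.61) in LSL-K4M and 6.05 (5.67 to 6.45) in Mll3/4SET. Mgst3, a related enzyme with glutathione peroxidase activity, was at 27.95, 10.9, 15.5 and 4.72 RPKM in the same order, 2.55-fold (2.12 to 3.09) and 3.28-fold lower (2.48 to 4.40). Mgst2, which can make leukotriene C4, was at 10.5 (mock) and 0.885 RPKM (4OHT) for LSL-K4M, then 3.05 and 0.0783 for Mll3/4SET. It rested on 134 and 12 reads in the former and on 40 reads and 1 read in the latter, so its ratios of 11.9 (6.60 to 23.6) and 39.0 (6.60 to 1576) are loosely bounded. Summed over the 3 genes, the level was 405.6 (mock) and 118 RPKM (4OHT) for LSL-K4M, then 340.4 and 58.0 for Mll3/4SET.

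**Figure D2:**
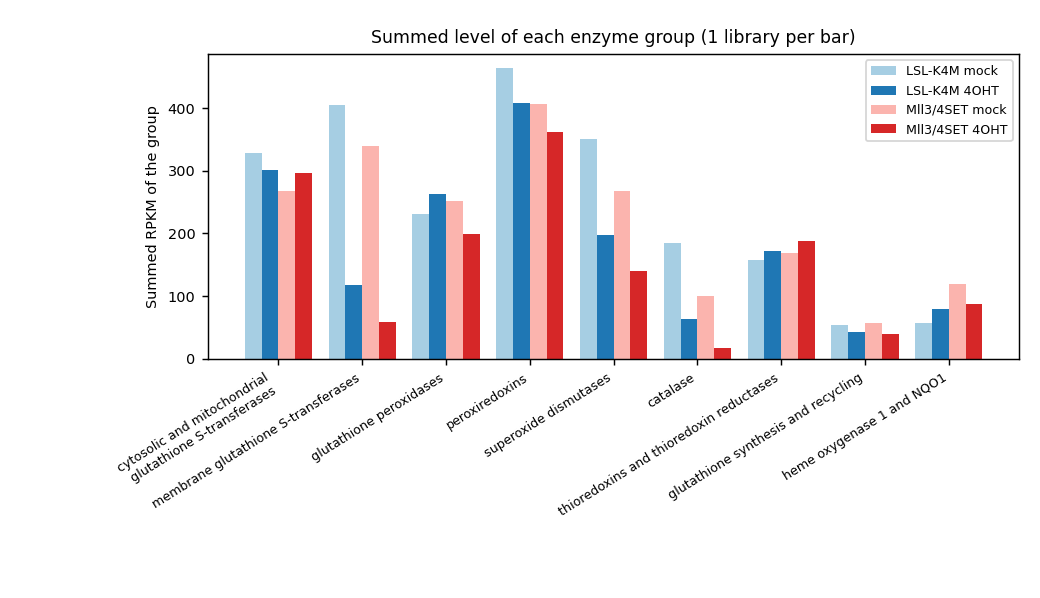
Summed RPKM (y axis) of the members of each enzyme group in the 4 libraries, 1 library per bar. By ratio of mock to 4OHT, membrane glutathione S-transferases (3.43 and 5.87) and catalase (2.92 and 5.60) differ most in both lines. The superoxide dismutase sums went from 351 to 198 and from 267 to 141 RPKM, a wider gap in RPKM than that of catalase. The sums of thioredoxins and their reductases are slightly higher with 4OHT (ratios of 4OHT to mock of 1.08 and 1.12), while 3 of the 5 genes are lower in each line.

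Catalase, the peroxisomal enzyme that splits hydrogen peroxide, had 184 (mock) and 63.1 RPKM (4OHT) for LSL-K4M, then 99.8 and 17.8 for Mll3/4SET. Its level in Mll3/4SET mock was thus nearer to LSL-K4M 4OHT than to LSL-K4M mock, and the lowest value was in Mll3/4SET 4OHT. The transcript was 2.92-fold (2.81 to 3.03) and 5.60-fold lower (5.23 to 5.999). By level it ranked 3 of the 52 members in LSL-K4M mock and 21 in Mll3/4SET 4OHT.

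Of the 3 superoxide dismutases, 0 were called lower in LSL-K4M and 1, Sod3, in Mll3/4SET, and all 3 had values below those of mock in both lines. Sod1, the copper and zinc enzyme of the cytosol, was at 230.4 (mock) and 119 RPKM (4OHT) for LSL-K4M, then 158 and 82.6 for Mll3/4SET, 1.94-fold (1.83 to 2.06) and 1.91-fold lower (1.78 to 2.05). These 2 ratios lay within each other's intervals. Sod1 was called lower in both lines only under the other scalings. Sod2, the manganese enzyme of the mitochondrial matrix, was at 71.9, 44.0, 78.0 and 43.5 RPKM in the 4 libraries and 1.63-fold (1.57 to 1.70) and 1.80-fold lower (1.72 to 1.87). Sod3, the secreted enzyme, was at 48.7 (mock) and 35.4 RPKM (4OHT) for LSL-K4M, then 31.2 and 14.7 for Mll3/4SET. It was 1.38-fold lower (1.29 to 1.47) in the former and 2.13-fold lower (1.94 to 2.34) in the latter.

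Glutathione peroxidases went different ways. The selenoenzyme Gpx3, which is secreted into plasma, was at 128 RPKM (LSL-K4M mock), 88.8 (LSL-K4M 4OHT), 155 (Mll3/4SET mock) and 41.2 (Mll3/4SET 4OHT). It was 1.45-fold lower (1.38 to 1.52) in LSL-K4M and 3.75-fold lower (3.53 to 3.99) in Mll3/4SET, a gap of -1.37 between the log2 ratios (-1.49 to -1.26, counting error only). Gpx4, the selenoenzyme that reduces lipid peroxides within membranes, was at 21.3 (mock) and 12.9 RPKM (4OHT) for LSL-K4M, then 22.7 and 13.3 for Mll3/4SET, under the limit in both.

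Gpx1, Gpx7 and Gpx8 had higher values with 4OHT in both lines, and Gpx8 alone of them was called. Gpx8, a membrane protein of the endoplasmic reticulum, was at 24.1 (mock) and 51.7 RPKM (4OHT) for LSL-K4M, then 26.9 and 56.1 for Mll3/4SET. Both mock libraries were low and both 4OHT libraries high without overlap, with ratios of 2.14 (1.93 to 2.38) and 2.08 (1.89 to 2.30). Its relative Gpx7, also of the endoplasmic reticulum, was at 14.4, 28.5, 12.1 and 24.6 RPKM in the 4 libraries, with ratios of 1.98 (1.75 to 2.24) and 2.04 (1.78 to 2.33) that came just short on the log2(RPKM + 1) scale. Gpx1, the selenoenzyme of cytosol and mitochondria, was at 42.9 (mock) and 80.3 RPKM (4OHT) for LSL-K4M, then 36.0 and 64.2 for Mll3/4SET, 1.87-fold (1.73 to 2.02) and 1.78-fold higher (1.64 to 1.94). Of the other members of the family, Gpx2 reached 0.0407 RPKM (1 read) in LSL-K4M 4OHT, and Gpx5 and Gpx6 had 0 reads in all 4 libraries.

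**Figure D3:**
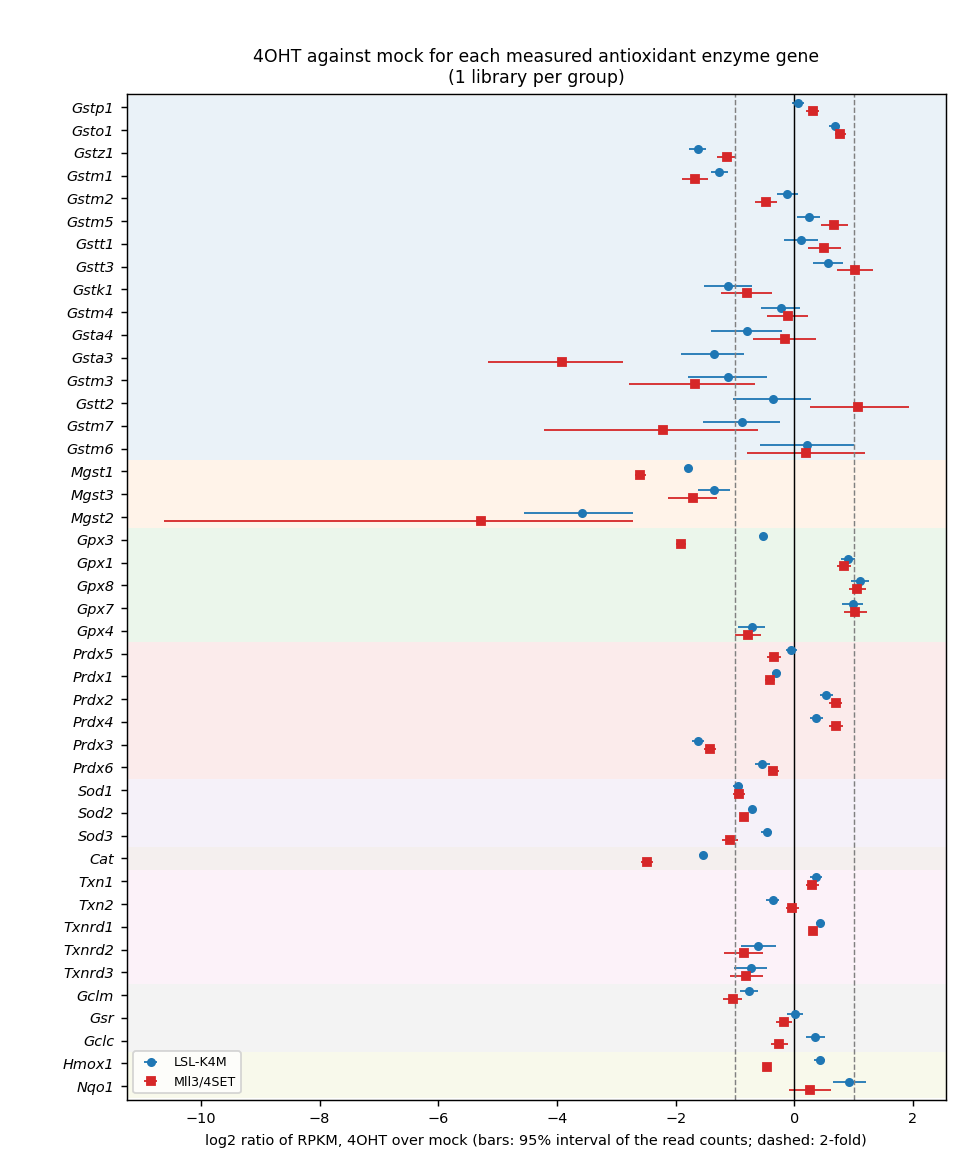
Log2 ratio of RPKM, 4OHT over mock (x axis), of each measured antioxidant enzyme gene (y axis, shaded by enzyme group) in LSL-K4M (blue circles) and Mll3/4SET (red squares); bars are 95% intervals of the read counts and dashed lines mark 2-fold. Membrane transferases and Cat lie left of the 2-fold line in both lines, Gpx1, Gpx7 and Gpx8 lie near the line on the right, and Mgst2 in Mll3/4SET has the widest bar, with 1 read in 4OHT.

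Among peroxiredoxins the mitochondrial Prdx3 stood at 93.1 RPKM in LSL-K4M mock and 30.2 with 4OHT, and at 91.98 and 34.5 in Mll3/4SET. The mock libraries were nearly level with each other, as were the 4OHT libraries, and the gene was 3.08-fold (2.87 to 3.31) and 2.67-fold lower (2.49 to 2.86). Its 5 relatives stayed under the limit in both lines. Prdx5, found in mitochondria, peroxisomes and cytosol, was at 128 (mock) and 123 RPKM (4OHT) for LSL-K4M, then 90.9 and 71.9 for Mll3/4SET, with ratios of mock to 4OHT of 1.04 (0.973 to 1.11) and 1.26 (1.17 to 1.37). The cytosolic Prdx1 was at 108, 87.7, 87.1 and 65.8 RPKM in the 4 libraries, and Prdx6, which uses glutathione and also has phospholipase activity, was at 24.9, 17.1, 37.9 and 29.6.

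Prdx2 and Prdx4 had values on the other side. Prdx2, of the cytosol, was 1.45-fold (1.34 to 1.57) and 1.62-fold higher (1.50 to 1.75) with 4OHT, and was at 84.5 RPKM in Mll3/4SET 4OHT. Prdx4, which works in the endoplasmic reticulum, was at 56.9 (mock) and 73.7 RPKM (4OHT) for LSL-K4M, then 46.5 and 75.4 for Mll3/4SET, 1.29-fold (1.20 to 1.40) and 1.62-fold higher (1.50 to 1.76). Summed over all 6 peroxiredoxins, the level was 463.5 (mock) and 408.4 RPKM (4OHT) for LSL-K4M, then 406.5 and 362 for Mll3/4SET.

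Cytosolic and mitochondrial glutathione S-transferases numbered 21, with 16 of them measured in LSL-K4M and 14 in the other line. The most abundant of them, Gstp1 of the pi class, was at 92.4, 96.6, 82.7 and 102 RPKM and ranked first of all members in Mll3/4SET 4OHT. Its ratio of 4OHT to mock was 1.05 (0.974 to 1.12) in LSL-K4M and 1.24 (1.15 to 1.33) in Mll3/4SET, and in LSL-K4M its log2 difference of 0.06 became negative under the other scalings. Gsto1, an omega class enzyme that also reduces dehydroascorbate, was at 56.6 (mock) and 90.5 RPKM (4OHT) for LSL-K4M, then 59.0 and 101 for Mll3/4SET, 1.60-fold (1.50 to 1.71) and 1.71-fold higher (1.60 to 1.82).

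Gstz1 and Gstm1 were called lower in both lines. Gstz1, the zeta class enzyme that acts as maleylacetoacetate isomerase in tyrosine breakdown, was at 48.1 (mock) and 15.5 RPKM (4OHT) for LSL-K4M, then 27.4 and 12.4 for Mll3/4SET. It was 3.10-fold lower (2.81 to 3.41) in LSL-K4M and 2.21-fold lower (1.97 to 2.48) in Mll3/4SET. Of the 7 members lower in both lines, Gstz1 and Prdx3 had the larger ratio in LSL-K4M. Gstm1, a mu class enzyme for lipid aldehydes and foreign compounds, was at 45.4 (mock) and 18.9 RPKM (4OHT) for LSL-K4M, then 26.7 and 8.38 for Mll3/4SET, 2.40-fold (2.17 to 2.66) and 3.19-fold lower (2.75 to 3.70). Its Mll3/4SET 4OHT level was the lowest of the 4.

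The other mu class genes, which share much of their sequence with Gstm1, differed among themselves. Gstm2 was at 24.3, 22.3, 23.3 and 16.7 RPKM in the 4 libraries and Gstm4 between 4.25 and 5.19. Gstm5 was at 19.1 (mock) and 22.5 RPKM (4OHT) for LSL-K4M, then 13.6 and 21.6 for Mll3/4SET, 1.18-fold (1.03 to 1.36) and 1.59-fold higher (1.37 to 1.86). Gstm3, Gstm6 and Gstm7 did not exceed 2.35 RPKM, where the log2(RPKM + 1) scale understates differences. By RPKM, Gstm3 was 2.17-fold (1.38 to 3.48) and 3.19-fold lower (1.59 to 6.94), ratios near those of Gstm1, and it was called lower in both lines with pseudocounts of 0.1 and 0.001. Gstm7 was 1.84-fold (1.18 to 2.92) and 4.63-fold lower (1.54 to 18.7), and Gstm6 had ratios of mock to 4OHT of 0.867 (0.496 to 1.50) and 0.876 (0.437 to 1.74). How reads that fit several of these genes were counted is not stated.

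Gsta3, an alpha class enzyme with steroid isomerase activity, was at 3.63 (mock) and 1.41 RPKM (4OHT) for LSL-K4M, then 4.11 and 0.272 for Mll3/4SET. With 124 and 8 reads in Mll3/4SET it was 15.1-fold lower there (7.43 to 35.7), against 2.57-fold (1.79 to 3.74) in LSL-K4M, where it stayed under the limit. In LSL-K4M it was called lower with pseudocounts of 0.1 and 0.001 and with TMM scaling. Gsta4, which conjugates the lipid peroxidation product 4-hydroxynonenal, was between 1.81 and 3.19 RPKM and under the limit in both lines. Gstk1, an enzyme of mitochondria and peroxisomes that also helps adiponectin to assemble, was at 8.07 (mock) and 3.74 RPKM (4OHT) for LSL-K4M, then 6.33 and 3.62 for Mll3/4SET. By RPKM it was 2.16-fold (1.64 to 2.86) and 1.75-fold lower (1.30 to 2.36), and it was under the limit on the log scale. In LSL-K4M Gstk1 was called lower with pseudocounts of 0.1 and 0.001 and with median-ratio and TMM scaling. The theta class genes Gstt1, Gstt2 and Gstt3 had log2 differences of 0.10, -0.21 and 0.49 in LSL-K4M and of 0.45, 0.52 and 0.85 in Mll3/4SET. Below 1 RPKM in all 4 libraries were Gsta1 (at most 0.0536), Gstt4 (0.0481), Gstp2 (0.981) and Gsto2 (0.998), and Gsta2 had 0 reads throughout.

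**Figure D4:**
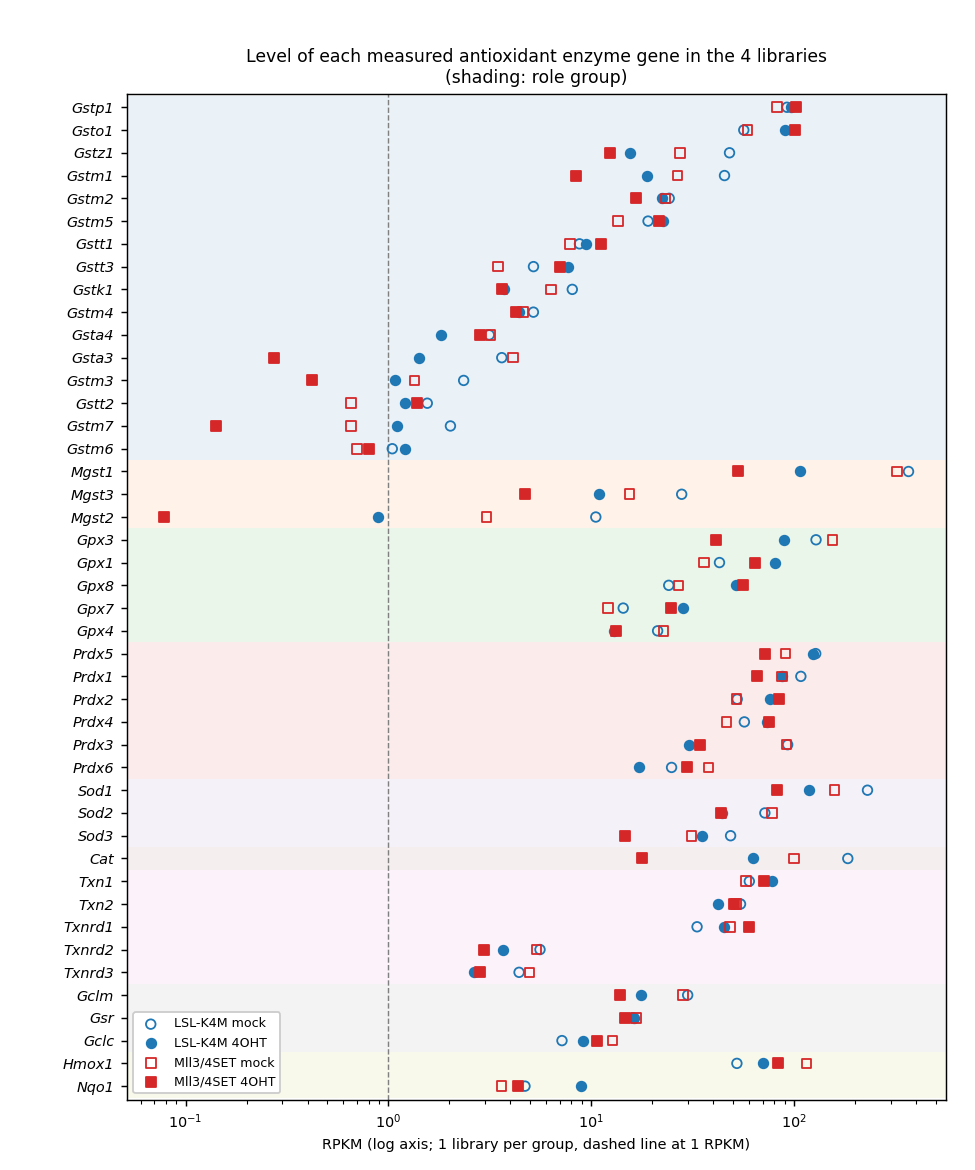
RPKM (x axis, log scale) of each measured antioxidant enzyme gene (y axis, shaded by enzyme group) in LSL-K4M mock and 4OHT (open and filled blue circles) and Mll3/4SET mock and 4OHT (open and filled red squares), 1 library each. Mgst1 in mock, at 367 and 322 RPKM, is the highest point of the plot, and Mgst2 in Mll3/4SET 4OHT, at 0.0783, the lowest.

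Thioredoxins and thioredoxin reductases all stayed under the limit. Txn1, the thioredoxin of the cytosol, was at 60.2 (mock) and 77.7 RPKM (4OHT) for LSL-K4M, then 58.0 and 71.5 for Mll3/4SET, 1.29-fold (1.20 to 1.38) and 1.23-fold higher (1.15 to 1.33). Its reductase Txnrd1, a selenoenzyme, was likewise 1.35-fold (1.28 to 1.43) and 1.24-fold higher (1.19 to 1.30). The mitochondrial pair had the opposite sign. Txn2 was at 54.5, 42.3, 51.7 and 50.4 RPKM, with ratios of mock to 4OHT of 1.29 (1.20 to 1.39) and 1.03 (0.953 to 1.10). Its reductase Txnrd2 was at 5.60, 3.67, 5.38 and 2.98 RPKM, 1.52-fold (1.24 to 1.88) and 1.81-fold lower (1.44 to 2.27). Txnrd3, a reductase best known from testis, was at 4.41 (mock) and 2.65 RPKM (4OHT) for LSL-K4M, then 4.96 and 2.83 for Mll3/4SET.

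Glutathione synthesis starts with glutamate-cysteine ligase, whose subunits differed. The modifier subunit Gclm was at 29.9 (mock) and 17.6 RPKM (4OHT) for LSL-K4M, then 28.4 and 13.8 for Mll3/4SET, 1.70-fold (1.53 to 1.89) and 2.06-fold lower (1.83 to 2.31). The catalytic subunit Gclc was at 7.18 and 9.17 RPKM in LSL-K4M, 1.28-fold higher (1.14 to 1.43), while Mll3/4SET had 12.8 and 10.7 RPKM, 1.19-fold lower (1.08 to 1.31) with 4OHT. Gsr, which returns oxidised glutathione to its reduced form, was at 16.1, 16.2, 16.6 and 14.7 RPKM, nearly level in all 4 libraries.

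Hmox1, which breaks down heme, was at 52.3 RPKM (LSL-K4M mock), 70.3 (LSL-K4M 4OHT), 116 (Mll3/4SET mock) and 83.6 (Mll3/4SET 4OHT). Both libraries of Mll3/4SET lay above both of LSL-K4M, and the 4OHT to mock direction was opposite in the lines, 1.34-fold higher (1.26 to 1.43) in LSL-K4M and 1.38-fold lower (1.32 to 1.45) in Mll3/4SET. Nqo1, which reduces quinones, was at 4.72 (mock) and 8.96 RPKM (4OHT) for LSL-K4M, then 3.62 and 4.34 for Mll3/4SET, 1.90-fold (1.56 to 2.31) and 1.20-fold higher (0.938 to 1.54). Neither gene reached the limit.

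The members together took 0.430% (LSL-K4M mock), 0.299% (LSL-K4M 4OHT), 0.401% (Mll3/4SET mock) and 0.266% (Mll3/4SET 4OHT) of all reads. By level the leading 5 in LSL-K4M mock were Mgst1, Sod1, Cat, Gpx3 and Prdx5, and in Mll3/4SET mock Mgst1, Sod1, Gpx3, Hmox1 and Cat. In Mll3/4SET 4OHT they were Gstp1, Gsto1, Prdx2, Hmox1 and Sod1, and the leading 5 held 32.7% of the members' summed RPKM there, against 42.9% in the mock library of that line.

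While the adipocyte markers differed far more in Mll3/4SET than in LSL-K4M, the members as a group did not follow that order closely. In 24 of the 42 members measured in both (57.1%) the log2(RPKM + 1) difference was lower in Mll3/4SET, beside 51.3% of all genes. That count takes in members with higher values with 4OHT, and its scale understates differences of weakly expressed genes. By RPKM, the 7 members lower in both lines all had the larger ratio of mock to 4OHT in Mll3/4SET, except Gstz1 and Prdx3. Besides Gpx3, the log2 RPKM ratio was lower in Mll3/4SET for Gsta3 by a gap of -2.55 (-3.70 to -1.41), Cat by -0.94 (-1.05 to -0.83), Mgst1 by -0.81 (-0.93 to -0.70) and Sod3 by -0.63 (-0.79 to -0.46). For Gstm1 the gap was -0.41 (-0.66 to -0.15). For Mgst3 it was -0.36 (-0.84 to 0.12) and for Mgst2 -1.71 (-4.70 to 1.28), with intervals that took in both signs. For Sod1 the gap was 0.02 (-0.11 to 0.15), and for Gstz1 and Prdx3 it was 0.49 (0.27 to 0.70) and 0.21 (0.06 to 0.35). These intervals hold counting error only, and the difference between the lines has no replicate check.

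NRF2 and its regulators had no member at 2-fold in either line, with 10 measured in LSL-K4M and 11 in the other line. Nfe2l2, which encodes NRF2, was at 45.7 (mock) and 40.1 RPKM (4OHT) for LSL-K4M, then 48.0 and 48.5 for Mll3/4SET, and Keap1, which marks NRF2 for breakdown, was at 20.7, 19.4, 17.4 and 14.2. The largest differences in either line were those of Mafk, a small MAF partner of NRF2, with log2 differences of 0.70 and 0.59, and of Bach1, which competes with NRF2 at its elements, with 0.62 and 0.21. In Mll3/4SET, Btrc at 0.46 and Maff at -0.44 differed more than Bach1. The list medians were 0.15 and -0.08.

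NADPH supply genes were lower in 7 of 18 cases in each line (38.9%), against 6.19% (LSL-K4M) and 7.41% (Mll3/4SET) of all measured genes. In each line 1 (5.56%) was higher, against 5.26% and 5.18% of all genes, and the medians were -0.73 and -0.50. The 7 were not all the same genes in both lines. G6pdx, the entry enzyme of the pentose phosphate pathway, was at 95.1 (mock) and 32.5 RPKM (4OHT) for LSL-K4M, then 73.1 and 16.4 for Mll3/4SET. Tkt (transketolase) had log2 differences of -1.88 and -1.81, Taldo1 (transaldolase) of -1.72 and -1.48, and Me1, the cytosolic malic enzyme, of -2.02 and -3.10. Pgd, the next oxidative enzyme of that pathway, had -1.14 and -1.47. In that pathway Pgls was level in both lines, with log2 differences of 0.04 and 0.04, and Rpia had -0.91 in LSL-K4M, under the limit, and -1.28 in Mll3/4SET. Idh1, the cytosolic isocitrate dehydrogenase, was at 169 (mock) and 71.9 RPKM (4OHT) for LSL-K4M, then 103 and 38.5 for Mll3/4SET. Nnt, which makes NADPH in mitochondria, was the higher one, named after its values were seen and not called in Mll3/4SET under the other scalings. It was at 3.82 (mock) and 9.59 RPKM (4OHT) for LSL-K4M, then 11.4 and 25.3 for Mll3/4SET. The row used for Nnt, 1 of 2, is a non-coding RefSeq transcript that matched no current name, so its level need not be that of mRNA for the enzyme.

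Other genes of cysteine supply and glutathione metabolism were lower in 6 and 5 of 21 cases (28.6% and 23.8%). Over all measured genes these shares were 6.19% and 7.41%. In each line 1 (4.76%) was higher, against 5.26% and 5.18% of all genes. The list medians were -0.03 and -0.27. Dpep1, which splits the cysteine-glycine dipeptide left from glutathione, was at 21.5 (mock) and 5.17 RPKM (4OHT) for LSL-K4M, then 12.5 and 0.35 for Mll3/4SET. Oplah, which returns 5-oxoproline to glutamate, and Ggt5, a gamma-glutamyl enzyme that acts on leukotrienes, had log2 differences of -1.78 and -2.22, and of -1.20 and -1.57. Chac1, which breaks glutathione down, was at 29.9 (mock) and 7.92 RPKM (4OHT) for LSL-K4M, then 27.5 and 36.9 for Mll3/4SET. Slc7a11, the cystine importer, was called lower in LSL-K4M alone (6.99 and 2.24 RPKM), and was at 19.7 and 14.6 in Mll3/4SET; the difference between the lines was not tested. Ggt7, a member of the gamma-glutamyltransferase family, was the higher one, with log2 differences of 1.24 and 1.32.

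Thioredoxin helpers, glutaredoxins, methionine sulfoxide reductases and sestrins were mostly under the limit, with 2 lower and 1 higher of 21 in LSL-K4M and 1 lower in Mll3/4SET. The shares called lower were 9.52% and 4.76%, beside 6.19% and 7.41% of all genes. Those called higher were 4.76% and 0%, beside 5.26% and 5.18%. Msra, which repairs oxidised methionine, was at 15.7 (mock) and 4.41 RPKM (4OHT) for LSL-K4M, then 12.1 and 2.05 for Mll3/4SET. Txnip, a brake on thioredoxin, was at 110.1 (mock) and 50.4 RPKM (4OHT) for LSL-K4M, then 106 and 59.7 for Mll3/4SET. Nxn (nucleoredoxin) was higher in LSL-K4M, at 13.3 and 29.4 RPKM, and under the limit in Mll3/4SET, at 16.1 and 30.4; with median-ratio and TMM scaling it was under the limit in LSL-K4M too.

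**Figure D5:**
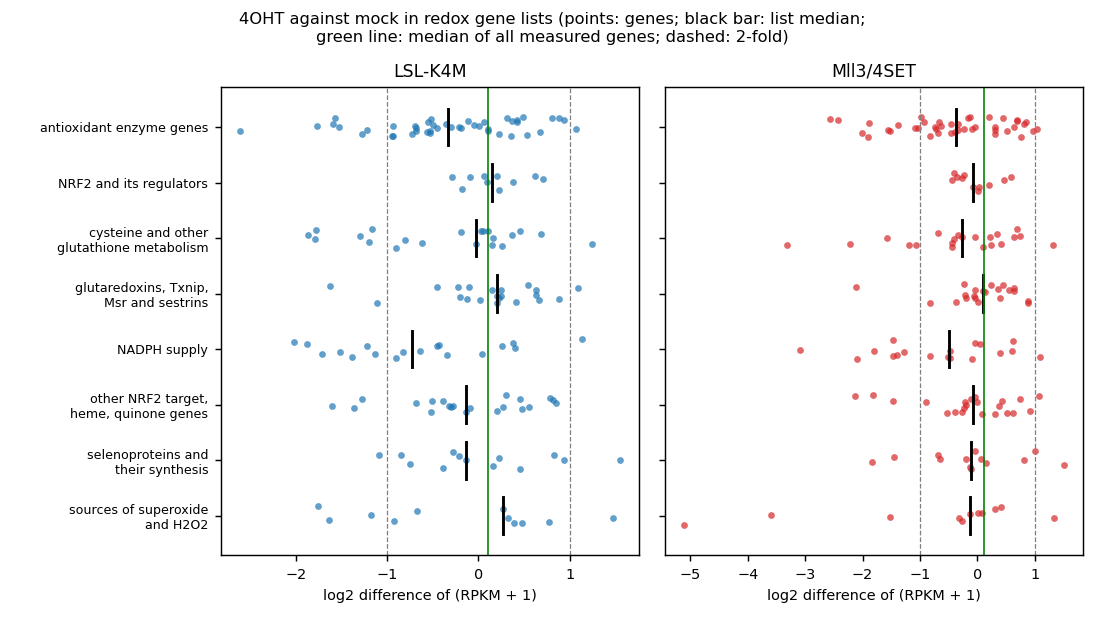
Log2 difference of (RPKM + 1), 4OHT against mock (x axis), of the measured genes of each redox list (rows) in LSL-K4M (left) and Mll3/4SET (right); points are genes, black bars list medians, the green line the median of all measured genes and dashed lines 2-fold. The NADPH supply list has the lowest medians, -0.73 and -0.50.

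By pattern over the 4 libraries, the 5 genes nearest to the mean pattern of the 7 members lower in both lines were Aco1, Pdk2, Fam195a (current symbol Mcrip2), Serpina3c and Tmem135. They were chosen among 6583 genes at 10 RPKM or more by the Euclidean distance of centred log2(RPKM + 1) values, which was 0.105 to 0.185 for them and 0.363 to 0.899 for the 7 members themselves. Aco1, the cytosolic aconitase that also senses iron, was at 84.6 (mock) and 27.7 RPKM (4OHT) for LSL-K4M, then 49.0 and 14.4 for Mll3/4SET.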

How the data were processed

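The authors deposited 1 table per line that lists, for every RefSeq transcript, a read count and an RPKM value from each of its libraries, per the file headers. The submitters' processing notes name the build mm9 and the tool SICER, and the aligner, the counter and the use of strand are not given in the sources used here. Deposited RPKM were proportional to the deposited counts, and the factor relating the libraries was constant within each table (0.938 and 1.03, RPKM per read of 4OHT over mock). The authors' ratio of mock to 4OHT and their expressed column, of the unit kind other, were deposited too and not used. The 6 ChIP and input libraries (day 4) were not analysed here.

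Of 29082 transcript rows, each symbol kept the row whose RPKM, averaged over 4 libraries, was highest, which chose among several rows for 8 members. Reads of paralogs (Gstm, Gsta, Gstp1 and Gstp2) and of genes with pseudogene copies, such as Prdx1, Prdx2, Gpx4 and Txn1, may have been split or lost. Differences were log2((4OHT RPKM + 1)/(mock RPKM + 1)), and ratios with their intervals came from the reads. With 1 library per group no test was possible. Every member is accounted for; all 4 values are given for members called in either line and for the most abundant of each enzyme group. Of the other lists, called genes were named, up to 6 per list by size of difference, or the 2 largest where none was called. One such gene is not reported here. Genes were matched to RefSeq names (GRCm38.p6) by accession, 98.0% of accessions. The members and lists were chosen with earlier results of these data known. Other settings were pseudocounts of 0.1 and 0.001, no filter or 5 RPKM, median-ratio and TMM scaling, the row with the most reads, and leaving out symbols with several rows. Python 3.11.15 with scipy 1.17.1 and R 4.3.3 with edgeR 4.0.16 (TMM factors only) were used.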

Additional observations from a re-analysis of the deposited data

Results flagged for a closer look

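Hmox1 and Gclc moved in opposite directions in the lines, with counting intervals off 1 in both. The log2(RPKM + 1) difference of Hmox1 was 0.42 in LSL-K4M and -0.46 in Mll3/4SET, -0.88 apart. That of Gclc was 0.31 and -0.23, -0.54 apart. With 1 library per group the difference between the lines was not tested.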

How the results depend on the processing

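The 11 called members kept their direction in both lines under all 8 other settings wherever these gave a value (167 of 167 values). Counts of lower members ranged from 6 to 10 in LSL-K4M (7 as reported), from 7 to 12 in Mll3/4SET (10) and from 6 to 9 in both lines (7). The count of higher members, 1 in each line and in both, became 0 in LSL-K4M, 0 in Mll3/4SET and 0 in both under median-ratio scaling and likewise under TMM scaling, where Gpx8 had log2 differences of 0.89 to 0.97. In Mll3/4SET it became 2 with a pseudocount of 0.1 and 4 with 0.001, with Gpx7, Gstt2 and Gstt3 added; a smaller pseudocount by construction gives weakly expressed genes larger differences. Signs turned under scaling in LSL-K4M for Gsr, Gstp1 and Gstt1, 3 of 44 members, and in Mll3/4SET for 0 of 42. No paired analysis was possible because each group holds 1 library, and for the same reason no library could be left out. Depth limits Mgst2, Gsta3, Gstm3, Gstm6 and Gstm7, which rest on few reads.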

Other observations

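Sepp1 (current symbol Selenop), the secreted selenium carrier, was at 168 (mock) and 78.0 RPKM (4OHT) for LSL-K4M, then 146 and 40.3 for Mll3/4SET, while Selm (Selenom), of the endoplasmic reticulum, was at 13.4 and 41.3 and at 15.2 and 45.0. Of 13 measured genes of selenoproteins and their synthesis, 1 was lower and 1 higher in LSL-K4M and 2 lower and 2 higher in Mll3/4SET. Over all genes, the shares called lower were 6.19% (LSL-K4M) and 7.41% (Mll3/4SET) and those called higher 5.26% and 5.18%. Dio3, which inactivates thyroid hormone, was also lower in Mll3/4SET, at 2.48 and 0.272 RPKM, and Sepw1 (Selenow) was higher there, at 97.4 and 197, a call lost under the other scalings. Among other NRF2 target, heme and quinone genes, 3 of 21 were lower and 0 higher in LSL-K4M and 3 of 22 lower and 1 higher in Mll3/4SET (14.3% and 13.6% lower). The lower ones were Aox1 (aldehyde oxidase), Osgin1 and Ugt1a6a in both lines, with log2 differences from -1.28 to -2.13, and the higher one was the metallothionein Mt2, at 162 and 343 RPKM in Mll3/4SET and not called there under the other scalings.

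Sources of superoxide and hydrogen peroxide had 3 lower (27.3%) and 1 higher gene (9.09%) of 11 measured in each line. Over all measured genes 6.19% (LSL-K4M) and 7.41% (Mll3/4SET) were lower and 5.26% and 5.18% higher. In each line 13 of the 24 listed genes were not measured. Aoc3, a copper amine oxidase of fat cells that releases hydrogen peroxide, was at 84.5 (mock) and 24.2 RPKM (4OHT) for LSL-K4M, then 69.8 and 1.04 for Mll3/4SET. Ero1l (current symbol Ero1a), which makes hydrogen peroxide while folding proteins in the endoplasmic reticulum, was at 76.3 (mock) and 23.9 RPKM (4OHT) for LSL-K4M, then 454 and 36.5 for Mll3/4SET, so that Mll3/4SET mock stood far above the other libraries. Cyba, a subunit of NADPH oxidases, was higher, at 22.2 and 63.2 RPKM and at 25.9 and 66.7, while Cybb, the catalytic subunit of phagocytes, stayed under 1 RPKM in all 4 libraries.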
